A study of Mus musculus with 6 samples.

Results

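The EGF receptor family, 5 of its ligands and the feedback inhibitor Errfi1 were described in whole mammary glands of WT and Hpn-/- mice. The 10 genes were taken by symbol from a table of 55450 genes: Errfi1, the receptor genes Egfr, Erbb2, Erbb3 and Erbb4, and the ligand genes Areg, Btc, Hbegf, Tgfa and Ereg. The group was assembled because Errfi1 passed the test between the genotypes in these libraries, so the genotype values of all 10 genes are given as a description, with no test. Of the 10, Errfi1, Egfr, Erbb2, Erbb3 and Areg had enough reads to enter the fit over 12520 genes, and the other 5 are given by their read counts.

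The glands came from virgin female mice on the FVB background. The 3 WT glands were taken at 2 weeks (replicate 1), 6 weeks (replicate 2) and 5 weeks (replicate 3). The 3 Hpn-/- glands, from mice in which the gene for the transmembrane serine protease hepsin was disrupted with CRISPR/Cas9, were taken at 6 weeks (replicates 1 and 2) and 5 weeks (replicate 3). The sources used here do not give the number of founder lines or the site of the disruption, and age 2 weeks is present in WT alone.

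EGF receptor family proteins are transmembrane tyrosine kinases that pair when a ligand binds. EGFR binds amphiregulin (Areg), TGF-alpha (Tgfa), betacellulin (Btc), HB-EGF (Hbegf) and epiregulin (Ereg). ERBB2 has no known ligand of its own and serves as a partner, and ERBB3 and ERBB4 bind neuregulins. In the mouse mammary gland amphiregulin is the ligand through which estrogen drives duct growth at puberty, and it acts on EGFR of the stroma. The product of Errfi1, also called MIG6, binds the kinase domain of EGFR and its relatives and blocks it, and it is itself induced by receptor signalling and by glucocorticoids.

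Total counts were 10971661 to 18807615 per library. Loci derived from ribosomal RNA took 78.0% to 84.3% of them, and 1798932 to 3071401 counts were left for all other genes. Luminal and basal epithelial markers were detected in every library (12 of 12 and 8 of 8 genes). Hpn itself had 4 to 12 counts in the WT and 3 to 5 in the Hpn-/- libraries, a ratio of 0.460 between the genotypes after scaling the summed counts for library size (exact 95% interval 0.207 to 0.971, for counting error alone).

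Errfi1 (ENSMUSG00000028967, chromosome 4, 150853919 to 150868892, plus strand, GRCm38) was at 6.55, 7.17 and 8.81 CPM (counts per 1000000 of the library's counts in tested genes, scaled by TMM) in WT replicates 1, 2 and 3. In Hpn-/- replicates 1, 2 and 3 it was at 13.8, 20.6 and 18.9 CPM. Every Hpn-/- library lay above every WT library, with no overlap. Errfi1 averaged 7.51 ± 1.17 CPM in WT and 17.8 ± 3.54 in Hpn-/- glands (SD, n = 3 each). The log2 fold change was 1.24 (SE 0.171), which placed Errfi1 25th from the top of the 12520 genes. Because the groups did not overlap, the Hpn-/- level was bound to be higher at both ages that the genotypes share. The ratios at each age therefore add no independent evidence. At 5 weeks, with 1 library each, the Hpn-/- level was 2.14 times the WT level, and at 6 weeks, with 2 Hpn-/- libraries against 1, it was 2.40 times. The call that chose the group was lost without WT replicate 1, WT replicate 2 or Hpn-/- replicate 2, where the log2 fold change was 1.14, 1.21 and 1.13. It was also lost with limma-voom (1.23) and with an age covariate over all 6 libraries (1.19). Of all tested genes 0.016% were called higher and 0.0% lower, and 5.94% had groups that did not overlap in the higher direction. Antisense genes overlap Errfi1 and Egfr, but share no exon bases with them.

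The summed level of 10 lymphocyte markers also differed between the genotypes without overlap. It was 64.9 to 84.8 CPM in WT and 86.0 to 116 CPM in Hpn-/- libraries, and all 10 markers had a log2 fold change above 0, though none passed the test. Hpn-/- replicate 2 had the highest lymphocyte sum and the highest Errfi1 level, but WT replicate 3, with the highest Errfi1 level of WT, had the lowest sum (64.9 CPM), and Hpn-/- replicate 3 had a lower sum and more Errfi1 than Hpn-/- replicate 1. The part of these cells in the Errfi1 difference was not tested.

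**Figure D1:**
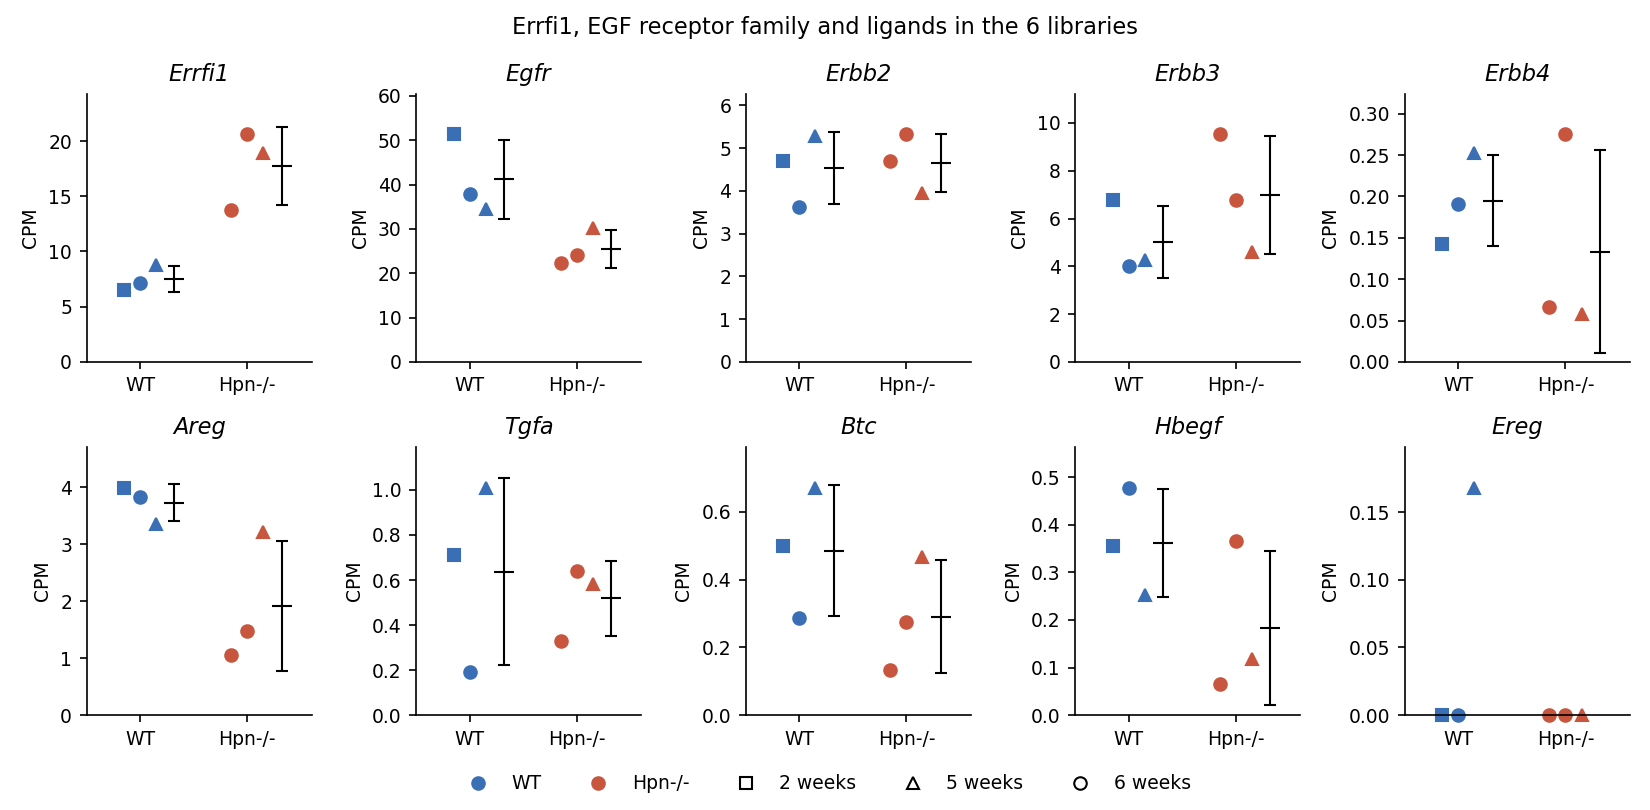
Level of Errfi1, the 4 receptor genes and the 5 ligand genes, in CPM on a linear axis from 0 with its own scale in each panel. Each symbol is 1 library, its shape gives the age, and the bar beside each group is the mean with its SD (n = 3), left out for Ereg. The Hpn-/- libraries lie at 13.8 CPM or more for Errfi1 and the WT libraries at 8.81 CPM or less, while Areg of the 5 week Hpn-/- library (3.21 CPM) lies next to WT.

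The receptor genes did not move as a block. Egfr (ENSMUSG00000020122, chromosome 11, 16752203 to 16918158) was at 51.3, 37.8 and 34.5 CPM in WT replicates 1, 2 and 3 and at 22.2, 24.0 and 30.2 CPM in Hpn-/- replicates 1, 2 and 3. All Hpn-/- libraries lay under all WT libraries, the 2 week WT library was the highest, and the 5 week libraries of the genotypes lay closest together. Egfr averaged 41.2 ± 8.92 CPM in WT and 25.5 ± 4.22 in Hpn-/- glands (SD, n = 3 each), and its log2 fold change was -0.69 (SE 0.165). At 6 weeks the Hpn-/- level was 0.611 times the WT level, and at 5 weeks 0.877 times. Without the 2 week WT library the log2 fold change was -0.50. Of all tested genes 5.04% had lower values with no overlap.

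The level of Egfr is given beside 8 fibroblast markers. Their sum, most of it from the collagen genes Col1a1, Col1a2 and Col3a1, was 3680, 2680 and 3370 CPM in WT replicates 1, 2 and 3 and 1920, 2140 and 2950 CPM in Hpn-/- replicates 1, 2 and 3. Within each genotype the library with the most Egfr also had the highest sum, but WT replicate 2 had more Egfr and a lower sum than WT replicate 3. The genotypes overlapped in the sum, and none of the 8 markers passed the test. The log2 fold changes of 5 markers were below 0, among them Col1a1 at -0.54, whereas Dcn was at 0.32, Dpt at 0.28 and Fap at 0.06. In a whole gland fewer cells of a type and less RNA per cell cannot be told apart, and the part of the fibroblast share in the Egfr difference was not tested.

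Erbb2 (ENSMUSG00000062312, chromosome 11, 98412470 to 98437716) showed no separation. It was at 4.70, 3.63 and 5.28 CPM in WT and at 4.69, 5.32 and 3.96 CPM in Hpn-/- replicates 1, 2 and 3. At 6 weeks the Hpn-/- level was 1.38 times and at 5 weeks 0.750 times the WT level. The log2 fold change was 0.02 (SE 0.197), and the values of the groups lay across each other.

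Erbb3 (ENSMUSG00000018166, chromosome 10, 128567523 to 128589652), whose product signals through its partners because its own kinase is weak, was at 6.76, 4.01 and 4.28 CPM in WT. It was at 9.52, 6.79 and 4.60 CPM in Hpn-/- replicates 1, 2 and 3. The groups overlapped, with a log2 fold change of 0.45 (SE 0.284) that was 0.13 without Hpn-/- replicate 1 and 0.74 without WT replicate 1. At 6 weeks the Hpn-/- level was 2.03 times the WT level, and at 5 weeks 1.08 times. WT replicate 1 and Hpn-/- replicate 1 were the libraries richest in skeletal muscle transcripts: the sum of 8 muscle markers was 573 CPM in WT replicate 1 and 863 CPM in Hpn-/- replicate 1, against 13.1 to 214 CPM in the other 4. Hpn-/- replicate 2, with Erbb3 at 6.79 CPM, had a muscle sum of 214 CPM. The sum of 12 luminal markers was 113, 103 and 91.5 CPM in WT and 122, 132 and 94.5 CPM in Hpn-/- replicates 1, 2 and 3. The part of muscle or of luminal cells in the Erbb3 values was not tested.

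Erbb4 (ENSMUSG00000062209, chromosome 1, 68032186 to 69108059) was at the edge of detection. It had 2, 2 and 3 counts in WT and 1, 3 and 1 counts in Hpn-/- replicates 1, 2 and 3. The ratio of the summed counts, scaled for library size, was 0.602, with an exact 95% interval of 0.151 to 2.20. The interval covers counting error only. A difference within these bounds was not detectable at this depth, and spread between libraries, which the interval leaves out, would widen them.

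Areg (ENSMUSG00000029378, chromosome 5, 91139599 to 91148432) was, of the 5 ligand genes of the group, the one with the clearest signal. It was at 3.99, 3.82 and 3.36 CPM in WT replicates 1, 2 and 3, from 56, 40 and 40 counts. In Hpn-/- replicates 1, 2 and 3 it was at 1.06, 1.47 and 3.21 CPM, from 16, 16 and 55 counts. The 6 week Hpn-/- libraries were low, and the 5 week Hpn-/- library lay just under the lowest WT value. Areg averaged 3.72 ± 0.328 CPM in WT and 1.91 ± 1.14 in Hpn-/- glands (SD, n = 3 each). Its log2 fold change was -0.92 (SE 0.326). It was -1.59 without Hpn-/- replicate 3, -0.62 without Hpn-/- replicate 1 and -0.78 without Hpn-/- replicate 2. At 6 weeks the Hpn-/- level was 0.330 times the WT level, and at 5 weeks 0.955 times. The luminal marker sum, against which Areg is also given, was not constant. It was 91.5 to 113 CPM in WT, 122 and 132 CPM in Hpn-/- replicates 1 and 2 and 94.5 CPM in Hpn-/- replicate 3. Of its 12 markers 9 had a log2 fold change above 0, among them Prlr at 0.75. The 3 below 0 were Pgr at -0.51, Krt8 at -0.49 and Krt19 at -0.01. Prlr was at 26.4 and 26.7 CPM in Hpn-/- replicates 1 and 2 and at 9.98 to 15.1 CPM in the WT libraries. Areg was 3.54% to 3.72% of the luminal marker sum in the WT libraries, 0.865% and 1.11% in Hpn-/- replicates 1 and 2 and 3.39% in Hpn-/- replicate 3. The higher sum in Hpn-/- replicates 1 and 2 itself lowers their percentages. The part of luminal cells in the Areg values was not tested.

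The other ligand genes were sparse, and their ratios, Hpn-/- over WT, are of summed counts scaled for library size. Tgfa (ENSMUSG00000029999, chromosome 6, 86195223 to 86275719) had 10, 2 and 12 counts in WT and 5, 7 and 10 counts in Hpn-/- replicates 1, 2 and 3, a ratio of 0.773 (exact 95% interval 0.413 to 1.44). Btc (ENSMUSG00000082361, chromosome 5, 91357261 to 91402994) had 7, 3 and 8 counts against 2, 3 and 8, a ratio of 0.609 (0.274 to 1.31). Hbegf had 5, 5 and 3 counts against 1, 4 and 2, a ratio of 0.454 (0.153 to 1.22). The interval of each ratio includes 1, the intervals cover counting error only, and the groups overlapped for each gene. Ereg (ENSMUSG00000029377, chromosome 5, 91074622 to 91093646) had 2 counts in WT replicate 3 and 0 in each other library, where a count of 0 allows a level of up to 0.175 to 0.287 CPM, depending on the library. Tgfa and Ereg overlap exons of an antisense or unclassified gene (118 and 141 bases), and their few reads are uncertain because the strand setting of the counting is not known.

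Areg, Ereg and Btc lie next to each other. With Epgn, which encodes the EGFR ligand epigen, they are the 4 protein-coding genes of a stretch of 376 kb on chromosome 5, in the order Epgn, Ereg, Areg, Btc. Epgn had no count in any library and Ereg 2 in all, so that Areg, with 223 counts over the 6 libraries, and Btc, with 31, carried nearly all reads of this cluster.

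Per kilobase of merged exons, the scale on which genes can be set side by side, the order of the levels differed between the genotypes. In WT glands Egfr was at 3.64, Areg at 3.06 and Errfi1 at 2.10 CPM per kilobase. In Hpn-/- glands Errfi1 came first at 4.96, before Egfr at 2.25 and Areg at 1.57. Egfr and Areg overlapped in their ranges over libraries within either genotype. Over all 6 libraries Erbb3 (0.996) and Erbb2 (0.883) followed and overlapped each other, and Tgfa, Btc and Hbegf lay at 0.0890, 0.0859 and 0.0564 with overlapping ranges. Erbb4 (0.0133) and Ereg (0.00677) were lowest.

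Within a library the ratio of Errfi1 to Egfr does not depend on the scaling between libraries. The ratio of their CPM was 0.128, 0.189 and 0.255 in WT replicates 1, 2 and 3 and 0.622, 0.859 and 0.624 in Hpn-/- replicates 1, 2 and 3. On the log2 scale it was -2.45 ± 0.502 in WT and -0.53 ± 0.267 in Hpn-/- glands (SD, n = 3 each), 1.92 higher in Hpn-/- glands. The inhibitor transcript thus stood higher against its receptor transcript in each Hpn-/- library than in any WT library. Both genes were chosen with their genotype values known, so this ratio adds no independent evidence.

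**Figure D2:**
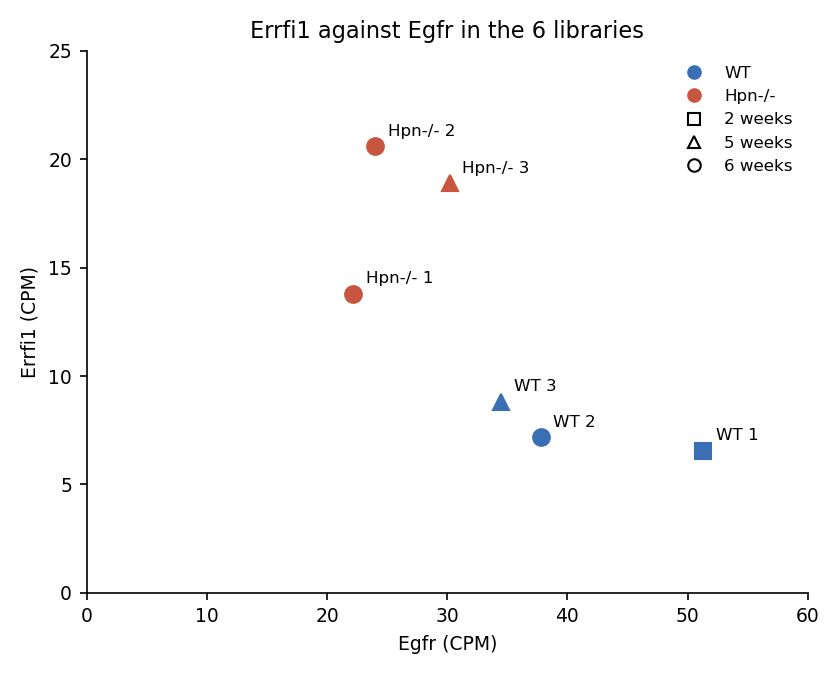
Errfi1 against Egfr, both in CPM on linear axes from 0, with 1 symbol for each of the 6 libraries, its colour for the genotype and its shape for the age. The 3 Hpn-/- libraries lie at the upper left (Egfr 22.2 to 30.2 CPM) and the 3 WT libraries at the lower right (Egfr 34.5 to 51.3 CPM).

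As shares of the receptor transcripts, Egfr made up 67.8% ± 3.76 of the summed CPM per kilobase of the 4 receptor genes in WT and 52.4% ± 10.1 in Hpn-/- glands (SD, n = 3 each). Erbb3 made up 15.4% ± 1.56 and 26.7% ± 8.68, Erbb2 16.6% ± 4.03 and 20.7% ± 2.87, and Erbb4 0.309% ± 0.126 and 0.250% ± 0.232. Egfr took 44.1% and 49.4% in the 6 week Hpn-/- libraries and 63.6% in the 5 week one. The 5 week WT library also had 63.6%. With 1 library of each genotype at 5 weeks, age cannot be told apart from other differences between single libraries. Among the 5 ligand genes Areg made up 83.7% to 94.3% in every library, 91.2% ± 3.44 in WT and 88.8% ± 4.55 in Hpn-/- glands. Within these 5 ligands the mixture was thus mostly amphiregulin transcript in both genotypes, although the level of Areg itself differed between libraries. The share leaves out other ligands of the family. Nrg4 was at 3.38 CPM per kilobase over all libraries, against 2.32 for Areg.

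**Figure D3:**
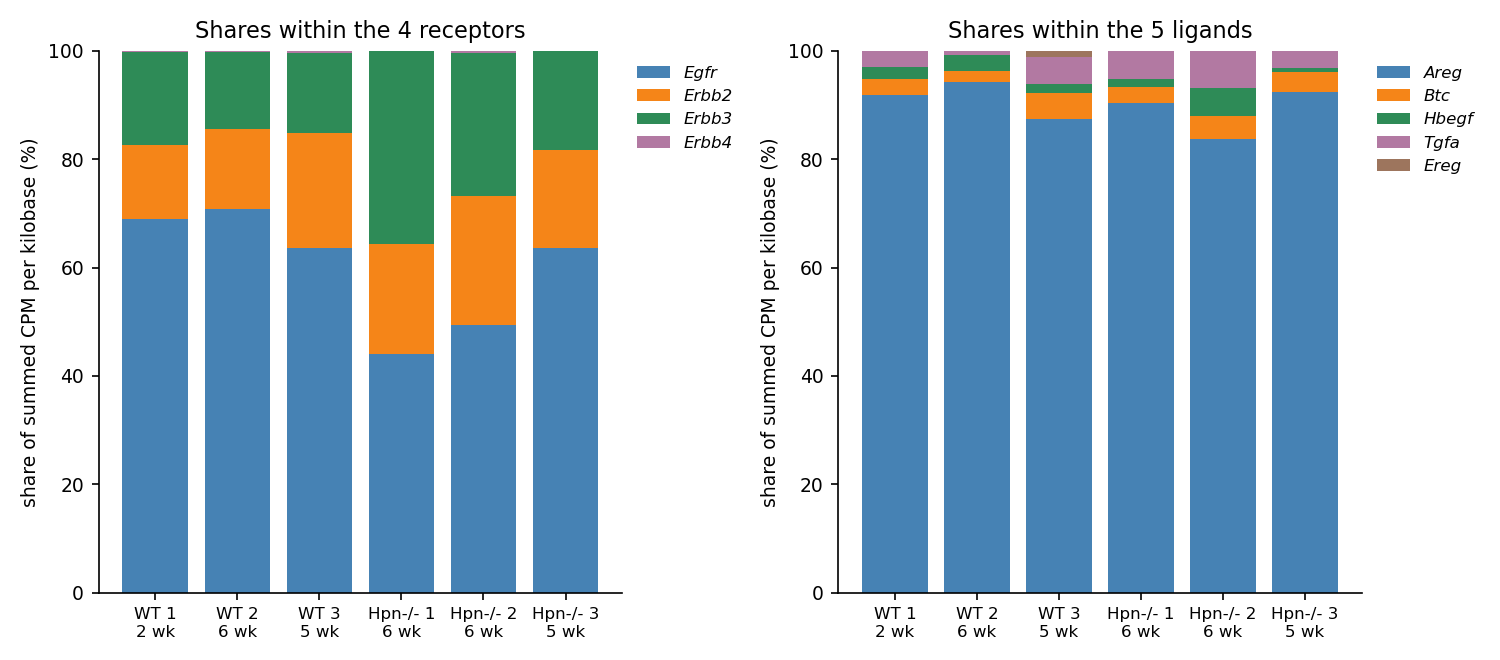
Share of each gene in the summed CPM per kilobase of the 4 receptor genes (left) and the 5 ligand genes (right), 1 bar for each library with its age in weeks, each bar adding to 100%. Egfr takes 44.1% to 70.8% of the receptor bars and Areg 83.7% to 94.3% of the ligand bars.

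The start regions of Errfi1, Egfr and Areg are shown, the 3 tested genes of the family whose groups did not overlap. Non-overlap was found in 5.94% (higher) and 5.04% (lower) of all tested genes, and since the family was chosen on this contrast nothing is read from the count. The sequences are RefSeq's for the C57BL/6J reference (GRCm38.p6), whereas the mice were FVB. Each is the 150 bases before a start site, on the strand of the gene, with matches to TGACGTCA (the cAMP response element) and TATAAA (the TATA box) in capitals.
Errfi1, chr4:150854920-150855069, plus strand: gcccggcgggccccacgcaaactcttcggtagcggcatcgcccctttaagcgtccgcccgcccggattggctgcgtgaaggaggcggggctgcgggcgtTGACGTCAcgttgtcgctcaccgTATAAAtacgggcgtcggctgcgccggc
Areg, chr5:91139449-91139598, plus strand: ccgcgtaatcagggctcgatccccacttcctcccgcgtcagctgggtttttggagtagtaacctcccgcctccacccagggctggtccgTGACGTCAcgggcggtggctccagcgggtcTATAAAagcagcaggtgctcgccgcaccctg
Egfr, chr11:16752053-16752202, plus strand: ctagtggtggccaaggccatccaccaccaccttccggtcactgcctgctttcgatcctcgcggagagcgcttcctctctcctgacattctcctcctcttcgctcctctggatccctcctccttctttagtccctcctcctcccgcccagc

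Errfi1 and Areg shared an arrangement that the other windows lacked. In Errfi1 the cAMP response element began 51 bases and the TATA box 28 bases before the start, and in Areg 61 and 31 bases before it. Both motifs were present together in 0.17% of 32851 promoter windows of 300 bases (250 before and 50 after a start), the element with or without the TATA box in 1.79% and the TATA box with or without the element in 13.6%, with either strand searched. Errfi1 has a second, upstream start in the table whose window held neither. Of the 10 genes 7 were in the table, and no window of Egfr, Erbb2, Erbb4, Btc or Tgfa held either motif, nor did any of the 7 genes' windows hold the AP-1 site TGANTCA (in 7.81% of all windows) or the palindromic glucocorticoid response element (in 0.00913%). The levels of Errfi1 and Areg went opposite ways between the genotypes. A match in letters is a description and does not show that a factor binds.

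The genes whose pattern over the 6 libraries was most like that of Errfi1 were picked by the smallest root mean square difference of centred log2 CPM. They were Tbxa2r (0.199), Fcrl1 (0.205), Ddit4 (0.219), Sik1 (0.230) and Depp1 (0.243), all on the log2 scale. Tbxa2r encodes the thromboxane A2 receptor, Fcrl1 a B cell surface receptor, Ddit4 an inhibitor of mTORC1 and Sik1 a salt-inducible kinase. Each had a higher mean in Hpn-/- glands, which follows from the way they were picked, such as Ddit4 with 4.82 against 12.5 CPM and Depp1 with 4.62 against 10.9 CPM. Nearest to Egfr were Cbr2 (0.0791), Pcsk5 (0.117), Nrm (0.119), Adamtsl1 (0.121) and Adgra2 (0.122). Among the family Areg was nearest to Egfr, at 0.375, and Egfr was 1.00 from Errfi1.

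The rest of the pathway was examined in 5 lists of 77 genes, of which 68 were tested. None was called by edgeR's quasi-likelihood test with Benjamini-Hochberg adjustment over all genes (smallest adjusted p = 0.814, for Stat5a), and none reached an unadjusted p under 0.05, which 3.98% of all tested genes did with higher and 2.9% with lower values. DESeq2, which called 8 of all genes, and limma-voom, which called 0 (436 higher and 382 lower at an unadjusted p under 0.05), called none of the 68. Of the 68 genes 40 had higher and 28 lower values, against 50.9% and 49.1% of all tested genes. Their median log2 fold change was 0.04 and that of all genes 0.00. All but 1 lay between the 5th and 95th percentiles of all genes (-0.43 and 0.47), and 2 had higher and 4 lower values with no overlap between the groups, near or under the 5.94% and 5.04% of all tested genes.

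Among the other ligands of the family, Nrg4, a neuregulin of fat that binds ERBB4, was the one with enough reads. Its level was 19.4 ± 2.10 CPM in WT and 21.6 ± 2.32 in Hpn-/- glands (SD, n = 3 each), with a log2 fold change of 0.16. Per kilobase its level was 3.38, above the 2.32 of Areg, while Erbb4, the transcript of its receptor, was at 0.0133. Egf had 34 counts in WT and 23 in Hpn-/- libraries, Nrg1 16 and 15, Nrg2 7 and 15, and Nrg3 and Epgn had none.

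The genes that release the ligands from the membrane gave no call. Of 9 tested genes 4 had higher and 5 lower values. Adam17, the main sheddase of amphiregulin, TGF-alpha and HB-EGF, was at a log2 fold change of 0.06 (SE 0.140), Adam10, which sheds betacellulin, at 0.11 (SE 0.141) and Adam9 at -0.18 (SE 0.127). Adam8 was at 0.30. Adam12, the most abundant of the list by mean CPM, was at 30.5, 24.8 and 27.5 CPM in WT and at 15.2, 18.6 and 31.1 CPM in Hpn-/- replicates 1, 2 and 3, so that here too the 5 week Hpn-/- library lay with WT.

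Of 14 tested genes for receptor turnover and restraint 10 had higher and 4 lower values. The ubiquitin ligase genes Cbl and Cblb, which mark active EGFR for breakdown, were at log2 fold changes of 0.20 (SE 0.128) and 0.23 (SE 0.127), and Lrig2 was at 0.28 (SE 0.161). Ptprk, a receptor phosphatase, was at -0.21 and Usp8, a deubiquitinase of sorting endosomes, at -0.16. The log2 fold change of Errfi1, 1.24, lay outside the range of these genes. Because Errfi1 was chosen for its change, this places it and is no test.

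The 27 genes of the adaptors and the kinase cascade were all tested, and their log2 fold changes ran from -0.28 to 0.19 around a median of 0.00, 14 of them above and 13 below 0. Pik3r1, the most abundant, was at 73.6 ± 18.4 and 68.4 ± 5.15 CPM (SD, n = 3 each), with a log2 fold change of -0.11. Stat5a, a transducer of prolactin and growth factor signals in the gland, was at -0.28 (SE 0.152), Pik3r2 at -0.24 (SE 0.140) and Pik3cb at 0.19.

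Transcripts that ERK signalling induces gave no call either. Of 17 tested genes 11 had higher and 6 lower values, and the median was 0.11 on the log2 scale. Dusp5, a phosphatase of nuclear ERK, had the largest value (1.14 ± 0.485 and 1.73 ± 0.0692 CPM, SD, n = 3 each, log2 fold change 0.59, SE 0.330), and Myc was at 0.23 (SE 0.195). Phlda1 was at -0.38 (SE 0.238) and Ccnd1, which encodes cyclin D1, at -0.22 (SE 0.140). The feedback inhibitors Dusp6, Spry2 and Spry4 were at 0.06, -0.25 and 0.12, and Spred1, the most abundant of the list, at 0.14.

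**Figure D4:**
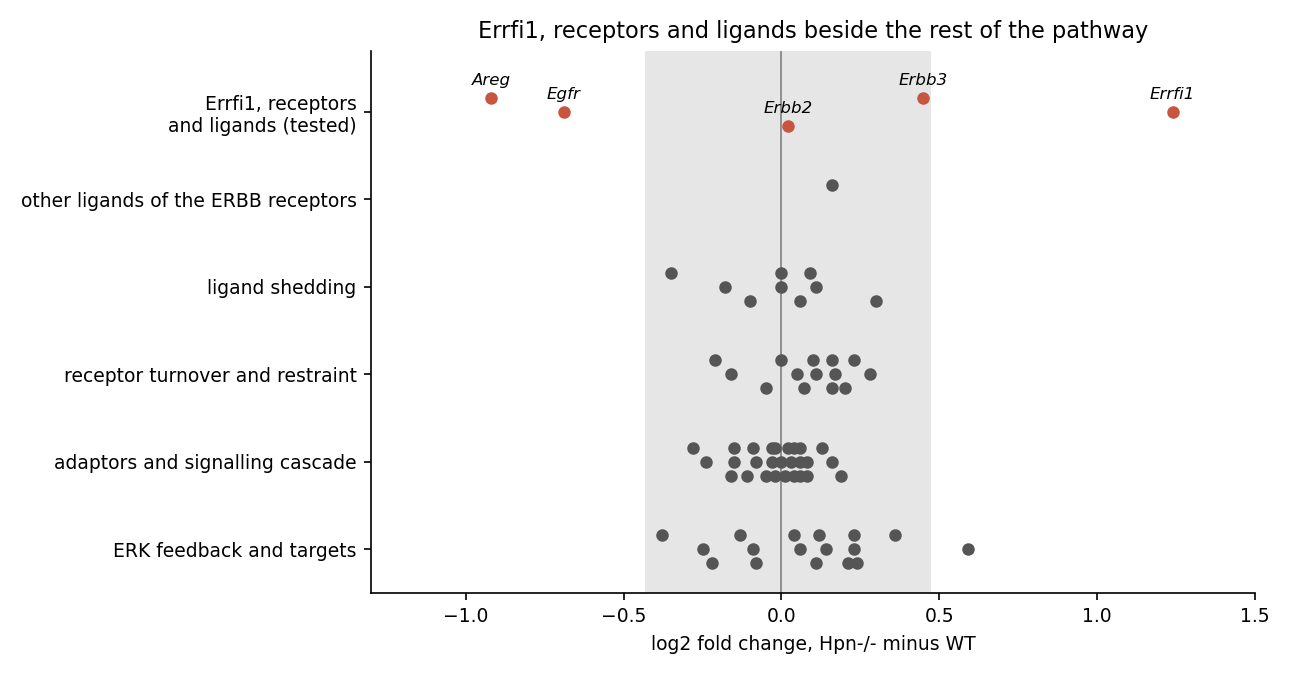
Log2 fold change, Hpn-/- minus WT, of the 5 tested genes of the group (red) and of the 68 tested genes of the 5 pathway lists (dark grey), 1 dot for each gene, spread vertically for legibility. The light grey band runs from the 5th to the 95th percentile of all tested genes (-0.43 to 0.47), and Errfi1, Egfr and Areg, chosen with these values known, lie outside it together with Dusp5 at 0.59.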

How the data were processed

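Per the labels' protocols, ribosomal RNA was removed from total RNA of whole glands before directional single-end sequencing. The authors deposited raw counts per gene for 6 libraries. Among the tools in the submitters' processing notes are STAR 2.6.0c for GRCm38, featureCounts and DESeq2, besides Trimmomatic and bcl2fastq. The strand setting and the annotation behind the counts are not stated there. All 55450 identifiers matched GENCODE M21, the source of symbols, coordinates and exon lengths.

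The fit used edgeR 4.0.16 under R 4.3.3, with filterByExpr (minimum count 10, minimum total 15), TMM scaling and a robust quasi-likelihood fit on genotype over 12520 genes, with Benjamini-Hochberg adjustment and calls at an adjusted p under 0.05. The procedure was checked on simulated counts. Log2 fold changes are Hpn-/- minus WT, and an SE is the size of the fold change over the square root of its F statistic. The titles carry a separate identifier for each sample, and the ages differ within both genotypes, but the labels do not say outright that each sample is a separate animal. P-values cover the spread among these 6 samples. Libraries of a group differed by more than counting noise (6.72 to 32.1 for chi-square over its degrees of freedom). Depth limits precision: the median SE of a log2 fold change was 0.192.

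The members and gene lists were chosen with earlier results of these data known. Named genes are the members, Hpn, called genes, of each list the 2 of smallest p per direction and the most abundant, and the 5 nearest to Errfi1 and Egfr (log2 CPM, prior count 2). Predicted genes were passed over. A gene that the rule names is not reported here. Adam17, Dusp6, Spry2, Spry4 and the untested ligands were named for their known roles. Alternatives were RLE and upper quartile scaling, no filter, 1 CPM in 3 libraries, DESeq2 1.42.0, limma-voom 3.58.1, a block for the replicate number, a covariate for age, loci derived from ribosomal RNA left out, a prior count of 0.5, the longest transcript as length, and each library left out. A wider set of ribosomal loci was added after seeing the data.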

Additional observations from a re-analysis of the deposited data

How the results depend on the processing

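Errfi1 and Sik1 were the 2 genes called higher, and 0 were called lower (498 and 363 at an unadjusted p under 0.05). The numbers called higher and lower were 76 and 24 with no count filter, 8 and 0 with DESeq2, 0 and 0 with limma-voom (436 and 382 at an unadjusted p under 0.05), 0 and 0 with an age covariate over all 6 libraries (287 and 190), and 3 and 1 with that covariate and no 2 week library. With each library left out in turn they ran from 0 to 89 higher and from 0 to 111 lower, with the highest of both without Hpn-/- replicate 3. Errfi1 was called in 12 of 17 alternatives, at log2 fold changes from 1.13 to 1.38 over all 17. It was not called with limma-voom, with age in all 6 libraries, or without WT replicate 1, WT replicate 2 or Hpn-/- replicate 2. The replicate block gave 8 and 1 calls. Deviations of same-numbered libraries correlated at 0.167, 0.0732 and 0.368, and those of differently numbered libraries at -0.291 to 0.127. These values do not exclude pairing. Replicates 2 and 3 also shared their age between the genotypes, so pairing and age cannot be told apart in them. The labels do not name the numbers as pairs, so the main fit did not take them as such. Log2 fold changes ran from -0.84 to -0.49 for Egfr, -0.11 to 0.13 for Erbb2, 0.13 to 0.74 for Erbb3 and -1.59 to -0.62 for Areg. Of the pathway genes the sheddase Adam12 was called in 1 alternative, without Hpn-/- replicate 3 (-0.72, adjusted p = 0.0164), so that leaving out single libraries gave 0 to 1 call in the shedding list. The causes were not tested. The shares moved by less than the spread between replicates with the longest transcript as length and with each library left out, and 4 of the 5 genes nearest to Errfi1 and all 5 nearest to Egfr were the same with a prior count of 0.5. The sparse genes Erbb4, Btc, Hbegf, Tgfa and Ereg are limited by depth.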
